A study of Rattus norvegicus with 48 samples.

Results

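Of 31998 rat genes in the count table, 51 differed with 3 d of hindlimb immobilization in the plantaris of both rat lines while changing little in the soleus, and these 51 genes are described here. The genes were chosen from their counts. Levels were taken as CPM, each count divided by its library total in M (mega) counts, and the difference for a muscle and line was the mean of log2(CPM + 0.5) in immobilized rats minus that in control rats. A member had a mean CPM of at least 1 over all 48 libraries, which 13647 genes reached. Its difference in plantaris was at least 0.8 upward in both lines or at least 0.8 downward in both. Its difference in soleus was under 0.4 in size in both lines, and the mean CPM + 1 of the control groups differed between muscles by a log2 ratio under 2. A further 2 identifiers were left out by the rule. The plantaris limit was met by 201 rising and 106 falling genes, the soleus limit left 38 and 19 of these, and the final set held 37 rising and 14 falling members. Here rising and falling mean only the direction the rule gave a gene, since these differences were what chose it.

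The samples came from 24 female rats aged 14 months, 12 from a line bred for low response to endurance training (LRT) and 12 from a line bred for high response (HRT), both at generation 19. Both lines descend from genetically heterogeneous stock, and all rats had completed treadmill training when young. In each line 6 rats had a hindlimb cast with the foot in plantar flexion for 3 d (HI), and 6 separate rats were not cast (CTRL). RNA of the plantaris, a mainly fast muscle, and of the soleus, a mainly slow muscle, was sequenced, giving 8 groups of 6. The immobilized rats received puromycin before the muscles were taken, and no injection is stated for the anaesthetized controls, although puromycin-based protein synthesis is also given for them. Each line stands for 1 breeding population, and the control muscle was never the other leg of a cast rat.

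Library totals were 26.8 to 36.4 M estimated counts (median 30.4 M), and no pair of libraries within a group agreed within counting noise. The muscle labels held in every library: the fast-fibre gene Mylpf lay between 2750 and 9170 CPM in plantaris and between 91.1 and 1170 CPM in soleus, and Pvalb between 587 and 2620 CPM against 0.135 to 39.3 CPM. A few rats stood apart. Over the 13596 genes with a mean CPM of at least 1 that were not members, the mean absolute log2 deviation from the control mean was 0.63 and 0.58 in plantaris of LRT HI rats 1 and 3 and 0.47 in HRT HI rat 4, against 0.24 to 0.38 in the other immobilized rats and 0.11 to 0.19 in controls. These 3 rats also had the highest values for many members, so the main counts are also given without their libraries.

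Muscle that is not loaded loses protein within days. Signals from insulin-like growth factor and its kinases hold back forkhead transcription factors, which otherwise switch on the ubiquitin ligases of atrophy, and the myostatin branch of transforming growth factor signalling acts through Smad proteins. Nerve activity keeps another set of genes in check: class IIa histone deacetylases hold down MEF2 targets, myogenin rises when a fibre loses its nerve supply, and acetylcholinesterase is concentrated at the neuromuscular junction.

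Of the 51 members, 35 had a symbol in the tables used here (23 rising, 12 falling), 2 falling members carried clone-based names of long intergenic RNAs, and 14 rising members had an identifier only. RefSeq held 1 entry for each of 33 members, spread over 15 chromosomes, and a promoter of 300 bases (250 before to 50 after the start) for 30. The 250 bases before the start of 4 members are shown because their values are among those described most fully (2 junction genes, the myogenic factor and the member with the largest LRT difference): Myog at chr13:48297226-48297475 on the plus strand, Gpnmb at chr4:79340878-79341127 on the plus strand, Prima1 at chr6:128154637-128154886 on the minus strand and Ache at chr12:25050411-25050660 on the minus strand (RefSeq, build GRCr8, printed 5′ to 3′ on the gene's own strand). Capitals mark letters matching a motif searched.
Myog: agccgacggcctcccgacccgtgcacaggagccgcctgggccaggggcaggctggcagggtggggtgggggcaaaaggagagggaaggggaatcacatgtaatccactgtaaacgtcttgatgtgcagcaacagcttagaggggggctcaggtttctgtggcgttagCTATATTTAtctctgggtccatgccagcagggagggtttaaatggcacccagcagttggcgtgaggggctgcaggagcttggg
Gpnmb: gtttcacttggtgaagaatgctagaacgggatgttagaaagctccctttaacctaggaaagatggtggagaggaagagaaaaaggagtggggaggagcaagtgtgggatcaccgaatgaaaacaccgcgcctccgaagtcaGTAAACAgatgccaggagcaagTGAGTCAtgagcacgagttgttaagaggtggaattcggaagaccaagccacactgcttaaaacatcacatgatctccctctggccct
Prima1: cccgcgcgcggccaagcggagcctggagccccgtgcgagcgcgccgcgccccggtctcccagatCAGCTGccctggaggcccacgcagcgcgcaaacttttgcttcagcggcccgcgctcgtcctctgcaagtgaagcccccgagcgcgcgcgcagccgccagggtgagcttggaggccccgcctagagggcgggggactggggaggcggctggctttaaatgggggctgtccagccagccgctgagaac
Ache: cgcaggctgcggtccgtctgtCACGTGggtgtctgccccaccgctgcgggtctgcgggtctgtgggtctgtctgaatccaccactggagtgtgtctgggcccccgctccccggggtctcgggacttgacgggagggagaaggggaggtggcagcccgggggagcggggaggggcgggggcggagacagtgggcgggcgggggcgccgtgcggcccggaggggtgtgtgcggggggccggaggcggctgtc

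The capitals in Myog are the MEF2 letters CTANNNNTA, which began 83 bases before the start. In Gpnmb they are the forkhead letters GTAAACA, 109 bases before the start, and the AP-1 letters TGANTCA, 87 bases before. In Prima1 they are CAGCTG, an E-box bound by myogenic factors, 186 bases before, and in Ache CACGTG, the E-box of MITF and TFEB, 229 bases before. Both strands were searched in the 300 bases, none of the capitalised motifs overlapped in these 4 promoters, and the sixth motif of this group was the antioxidant element TGACNNNGC. The letters were settled after a first search had been seen, in which a longer, stricter MEF2 motif was in no member, and 4 further motifs of that search are given last. Such letters are frequent. Over 27457 RefSeq promoters of the same length, CTANNNNTA was found in 22.2%, CAGCTG in 15.1%, TGACNNNGC in 12.2%, TGANTCA in 7.33%, CACGTG in 6.65% and GTAAACA in 3.76%. Among the 19 rising and 11 falling members with a promoter, CTANNNNTA was in 3 and 1, CAGCTG in 5 and 1, TGACNNNGC in 3 and 1, TGANTCA in 4 and 1, CACGTG in 2 and 2, and GTAAACA in 1 and 1. The stricter MEF2 motif was in 3.83% of all promoters. Of the motifs not capitalised, the Smad letters GTCTAGAC were in 0.215% of all promoters and in 0 rising and 0 falling members and their shorter form GTCTG in 50.0% of all promoters and in 7 rising and 8 falling members. The hypoxia letters ACGTG, which CACGTG contains, were in 19.7% of all promoters and in 5 rising and 3 falling members, and the outer bases of the SRF CArG box (CC and GG with any 6 bases between) in 71.9% of all promoters and in 17 rising and 10 falling members. The counts are small, and a match describes letters and not a bound site.

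In plantaris the rising members differed by 0.85 to 3.31 on the log2(CPM + 0.5) scale in LRT (median 1.25) and by 0.8 to 2.46 in HRT (median 0.88). The falling members differed by -2.1 to -0.93 in LRT (median -1.31) and by -1.44 to -0.81 in HRT (median -0.87). In soleus the medians were 0.25 and -0.12 in LRT and 0.07 and -0.05 in HRT. Over all genes with a mean CPM of at least 1 the same difference had a median of 0.222 and 0.148 in plantaris and 0.129 and 0.061 in soleus, so that a rise on this scale includes an upward shift of the typical gene. With edgeR's TMM scaling the median of all genes lay within 0.033 of 0. The rule applied to TMM-scaled values gave 45 genes, 19 rising and 26 falling, of which 22 were among the 51. The balance of 37 rising to 14 falling therefore belonged to the scaling by library total. Ache, Prima1, Foxo1, Errfi1, Gpnmb and Tpi1 were among the 22. Myog, Smad3, Igf1r, Bach1, Tubb6 and Crim1 were not, their TMM-scaled HRT plantaris differences being under 0.8 (0.75 for Myog). Hdac9, Mlf1 and Got1 were not either, at -0.41, -0.50 and -0.49 in LRT soleus.

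**Figure D1:**
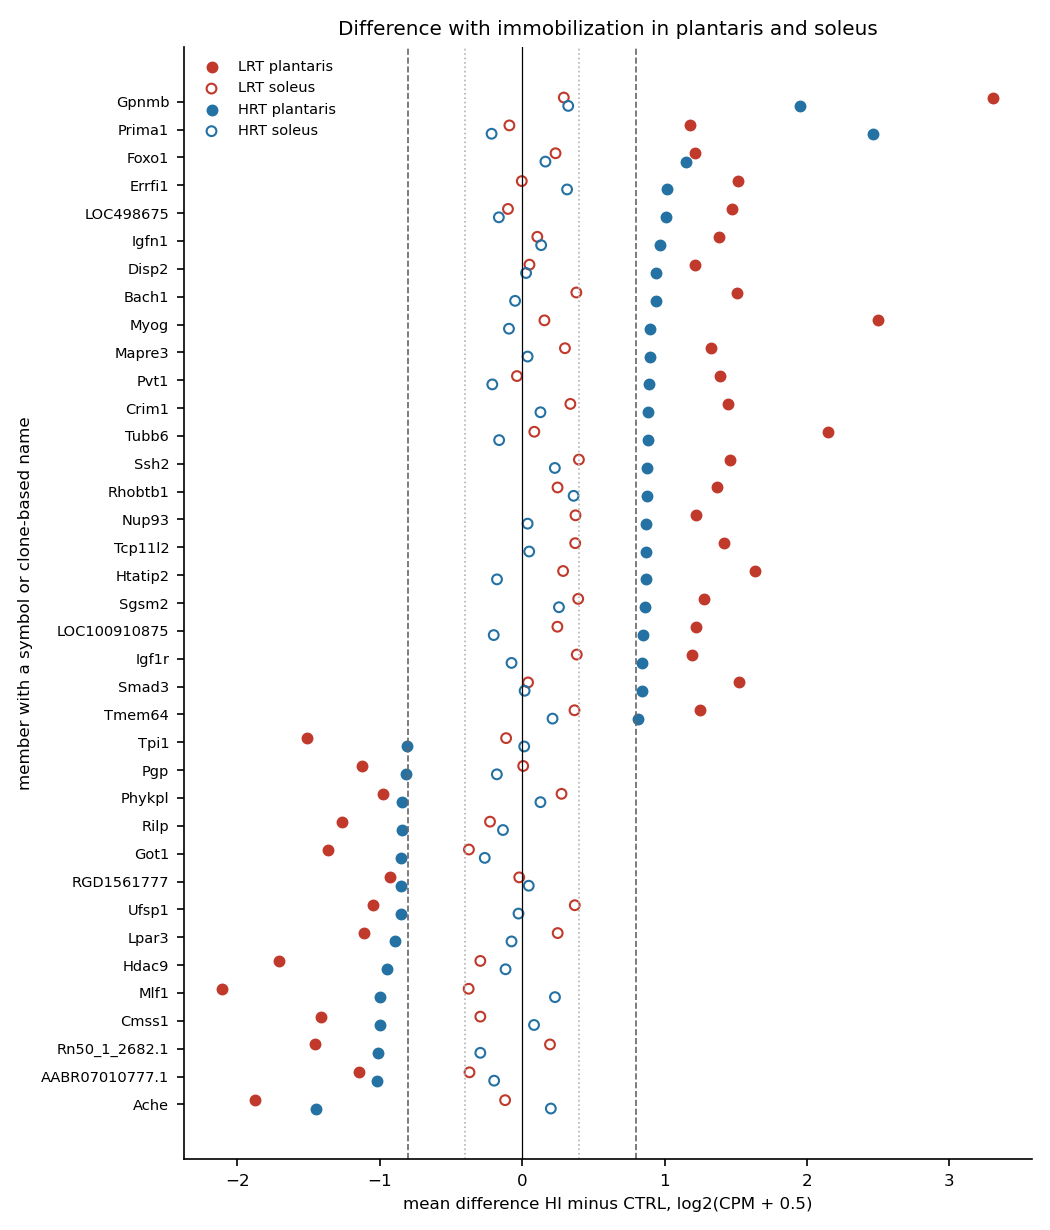
Mean difference between immobilized and control rats on the log2(CPM + 0.5) scale (horizontal axis) for the 37 members with a symbol or clone-based name (vertical axis), in plantaris (filled) and soleus (open) of LRT (red) and HRT (blue), 6 rats a group. Dashed lines mark the limit of 0.8 and dotted lines the limit of 0.4 used to choose the genes, and the HRT points lie just outside 0.8 for most members while the LRT points lie farther out.

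The difference was larger in size in LRT than in HRT for 50 of the 51 members, and Prima1 was the exception. Without the libraries of LRT HI rats 1 and 3 and HRT HI rat 4 it was larger in LRT for 38, and with TMM scaling of all libraries for 41. The count of 50 thus depended on those libraries and on scaling by library total, though most members stayed larger in LRT. Over all genes tested the median absolute edgeR difference was 0.26 in LRT plantaris and 0.2 in HRT. The members' differences are the values that chose them, so the comparison is a description. In the fit across all genes (edgeR's quasi-likelihood test, adjusted p under 0.05), 35 of 37 rising members were higher in HI plantaris of LRT, where 14.6% of all 16960 genes tested were, and 13 of 14 falling members were lower, where 13.9% were. In HRT plantaris 25 of 37 were higher, beside 5.04% of all genes, and 11 of 14 were lower, beside 5.95%. Without LRT HI replicates 1 and 3 and HRT HI replicate 4 the called members numbered 38 in LRT and 30 in HRT, beside 13.1% and 8.42% of all genes in either direction, against 48 and 36 with every library. Without plantaris HRT HI replicate 4 alone they numbered 21 in HRT, beside 5.46% of all genes. No member was called in soleus of either line, where 8.51% of all genes were higher and 5.91% lower (14.4% together) in LRT and 8.5% and 7.72% (16.2% together) in HRT. At an unadjusted p under 0.05 edgeR gave 1 member in LRT soleus and 0 in HRT soleus, beside 29% and 31.1% of all genes. DESeq2 gave 2 and 0 at that level and 0 adjusted, and limma-voom gave 0 throughout. Nothing about the members is read from these counts, because the rule used the same contrasts.

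All 6 immobilized rats lay above all 6 controls for 20 of 37 rising members in LRT plantaris and for 21 in HRT plantaris, which 15.8% and 13.1% of the 13647 genes with a mean CPM of at least 1 did. All immobilized rats lay below all controls for 8 of 14 falling members in LRT, beside 2.59% of all genes, and for 6 in HRT, beside 2.8%. Without LRT HI rats 1 and 3 and HRT HI rat 4 these counts were 21 and 23 of the rising members, beside 17.0% and 14.3% of all genes, and 8 and 6 of the falling members, beside 2.98% and 3.08%. In soleus the groups overlapped for every member, beside 3.8% of all genes with every immobilized rat higher and 1.06% with every one lower in LRT, and 3.63% and 1.78% in HRT. Just inside the limits lay Tpi1, at -0.811 in HRT plantaris, with Aldh1a3 just outside at -0.784. The last rising member had 0.802 in HRT and the first rising gene left out 0.799. At the soleus limit Ssh2 was inside at 0.399 in LRT and Rhbdf2 outside at 0.408, while Mlf1 was inside at -0.375 and the clone-named AABR07058464.1 outside at -0.401 in HRT.

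The set holds the gene of an enzyme of the neuromuscular junction on its falling side and that of the enzyme's anchor on its rising side, as measured in RNA of whole muscle. Ache encodes acetylcholinesterase, which ends cholinergic transmission. In LRT plantaris it was 27.9, 37.2 and 43.1 CPM (lowest, median and highest of 6 rats) in CTRL and 3.29, 10.6 and 28.7 CPM in HI. In HRT plantaris Ache was 26.1, 35.1 and 38.6 CPM in CTRL and 3.55, 12.9 and 31.3 CPM in HI. The groups overlapped by a single immobilized rat in each line, rat 6 of LRT and rat 3 of HRT. The edgeR log2 differences were -1.92 (SE 0.39) in LRT and -1.40 (SE 0.37) in HRT. In soleus the Ache medians were 14.2 and 12.8 CPM in LRT and 10.1 and 13.4 CPM in HRT, CTRL first, and the groups overlapped widely.

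Prima1 encodes the proline-rich anchor that tethers acetylcholinesterase to membranes. It was 0.744, 2.22 and 3.76 CPM in CTRL and 5.29, 13.2 and 32.0 CPM in HI plantaris of HRT, with every immobilized rat above every control. In LRT plantaris Prima1 was 1.45, 2.85 and 4.35 CPM in CTRL and 1.62, 7.26 and 22.7 CPM in HI. The LRT immobilized rats were spread from the control range upward: rats 1 and 3 were at 1.77 and 1.62 CPM and rats 2 and 6 at 22.7 and 20.5 CPM. The edgeR log2 differences of Prima1 were 1.53 (SE 0.45) in LRT and 2.50 (SE 0.46) in HRT. Rats 1 and 3 of LRT, lowest for Prima1, were also lowest for Ache at 4.05 and 3.29 CPM, and HRT rat 4 was lowest for both, at 5.29 CPM of Prima1 and 3.55 CPM of Ache. In soleus Prima1 lay between 0.405 and 1.85 CPM in every rat of every group.

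Myog, the myogenic transcription factor myogenin, was the rising member with the second largest LRT difference, 2.50, and 0.90 in HRT. In LRT plantaris it was 11.9, 17.0 and 23.2 CPM in CTRL and 46.9, 71.2 and 286 CPM in HI, with no overlap. In HRT plantaris Myog was 12.3, 15.9 and 22.4 CPM in CTRL and 12, 27.8 and 162 CPM in HI, and 2 immobilized rats, at 12 and 12.5 CPM, were no higher than the lower controls. Rats 1 and 3 of LRT, at 270 and 286 CPM, and rat 4 of HRT, at 162 CPM, were far above the others. The soleus had higher control levels of Myog, 42.5, 56.9 and 126 CPM in LRT and 47.1, 59.1 and 83.6 CPM in HRT, and medians of 61.3 and 59.3 CPM with immobilization.

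Hdac9, a class IIa histone deacetylase that represses MEF2, was a falling member. In LRT plantaris it was 23.5, 27.3 and 32.6 CPM in CTRL and 4.28, 6.74 and 15.9 CPM in HI, with no overlap. In HRT plantaris Hdac9 was 22.2, 24.7 and 28.7 CPM in CTRL and 5.57, 13.2 and 23.8 CPM in HI, and a single immobilized rat, rat 6 at 23.8 CPM, reached the control range. Soleus controls were at medians of 32.5 and 36.5 CPM in LRT and HRT, and immobilized rats at 26.7 and 32.9 CPM.

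The neuromuscular junction and myogenic list held 18 genes, of which 7 had an identifier in the study's tables of changed genes. In LRT plantaris 4 of the 7 rose and 1 fell (median log2 difference 1.11, with 0.007 over all genes), and in HRT 2 rose and 1 fell (median 1.14, with 0.015). Of all genes 14.6% were higher and 13.9% lower in LRT plantaris, and 5.04% and 5.95% in HRT. Without LRT HI rats 1 and 3 and HRT HI rat 4, 4 rose and 1 fell in LRT (median 1.09), and 1 rose and 1 fell in HRT (median 0.29). Of all genes 6.27% were then higher and 6.8% lower in LRT, and 3.64% and 4.78% in HRT. Gadd45a, a stress gene strongly raised by denervation, rose by 3.28 (SE 0.48, edgeR adjusted p = 6.5e-06) in LRT and by 2.07 (SE 0.49, adjusted p = 0.0062) in HRT. Runx1, a transcription factor that sustains denervated fibres, rose by 3.14 (SE 0.57, edgeR adjusted p = 8.5e-05) and by 1.72 (SE 0.58, adjusted p = 0.047). Musk, the receptor kinase that organises the junction, differed by 1.11 (SE 0.42, edgeR adjusted p = 0.043) and by 1.14 (SE 0.44, adjusted p = 0.087). In soleus Gadd45a rose too, by 1.97 (SE 0.46, edgeR adjusted p = 0.0034) in LRT and by 1.68 (SE 0.47, adjusted p = 0.013) in HRT, and of the 7 genes 1 rose in LRT soleus, and 2 rose and 1 fell in HRT soleus. These identifiers come from genes picked on these same samples, so the list is not independent evidence of its direction, and Ache and Myog are among the 7.

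**Figure D2:**
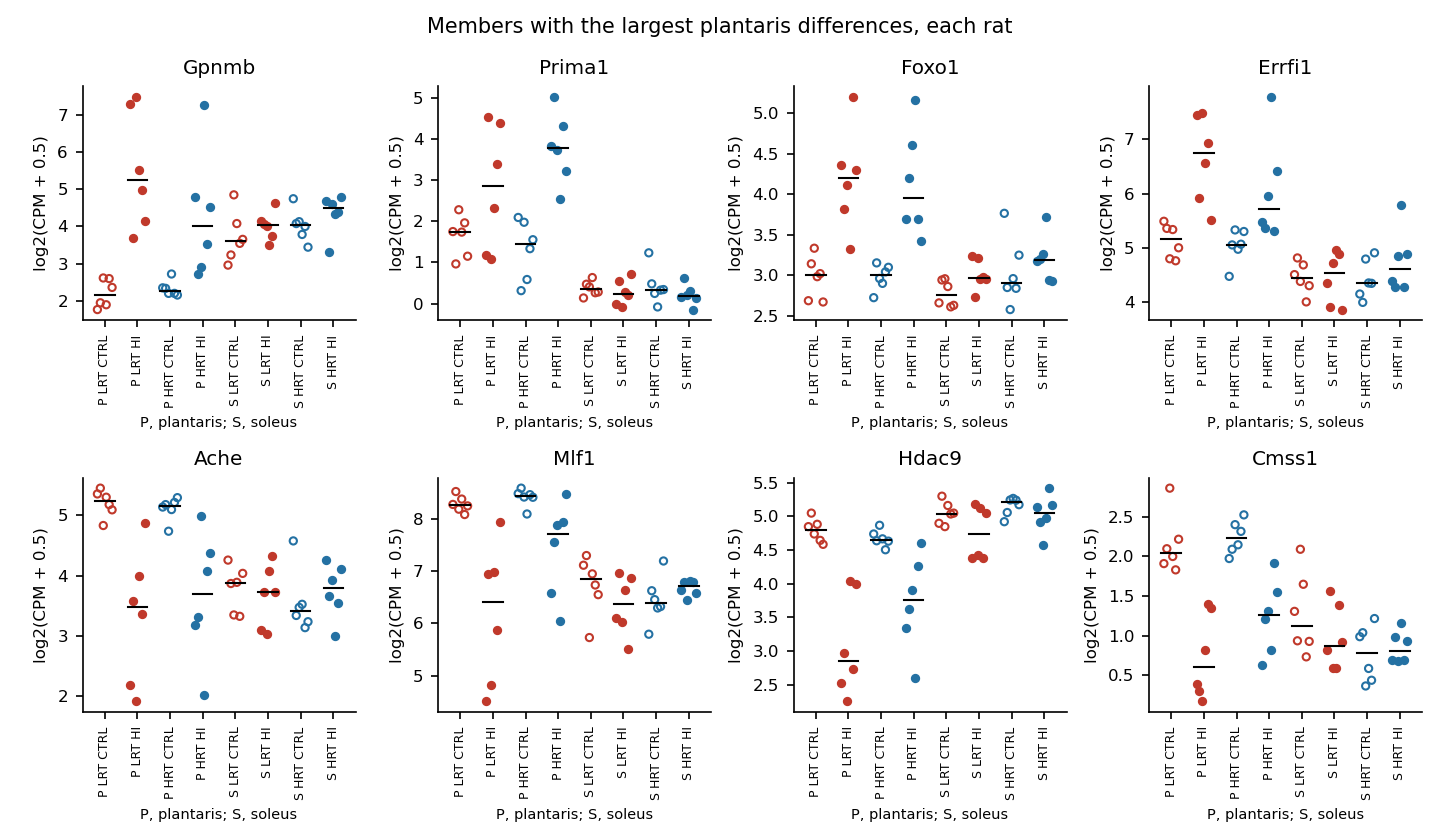
Level of 8 members in each rat as log2(CPM + 0.5) (vertical axis) by group (P, plantaris and S, soleus; LRT red, HRT blue; CTRL open, HI filled; 6 rats a group), with the group median as a line. Immobilized plantaris rats lie above controls for Gpnmb, Prima1, Foxo1 and Errfi1 and below them for Ache, Mlf1, Hdac9 and Cmss1, with the partial overlaps given in the text, while the soleus groups overlap.

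Among regulators of growth and protein loss, Foxo1 had close differences in both lines, 1.21 in LRT and 1.15 in HRT on the scale of the rule. Foxo1 is a forkhead factor that activates atrophy genes. It was 5.87, 7.52 and 9.59 CPM in CTRL and 9.56, 18.0 and 36.4 CPM in HI plantaris of LRT, where the lowest immobilized rat (rat 4) fell just under the highest control. In HRT plantaris Foxo1 was 6.11, 7.52 and 8.40 CPM in CTRL and 10.2, 15.2 and 35.5 CPM in HI, with no overlap. The highest LRT rat for this gene was rat 5 and not rat 1 or 3. Soleus medians of Foxo1 were 6.29 and 7.32 CPM in LRT and 7.0 and 8.62 CPM in HRT, CTRL first.

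Errfi1, a feedback inhibitor of epidermal growth factor receptors, was 26.7, 35.8 and 44.5 CPM in CTRL and 45.2, 108 and 179 CPM in HI plantaris of LRT, without overlap. In HRT plantaris Errfi1 was 21.8, 32.9 and 39.8 CPM in CTRL and 39.3, 52.7 and 220 CPM in HI. The lowest HRT immobilized rat was just inside the control range and rat 4 was the highest. Igf1r, the insulin-like growth factor receptor, had medians of 7.86 and 18.4 CPM in LRT and 8.65 and 16 CPM in HRT, CTRL first, and Smad3, which carries myostatin and transforming growth factor signals, had 229 and 691 CPM in LRT and 226 and 385 CPM in HRT. Neither gene's groups overlapped in plantaris of either line. Crim1, a transmembrane protein that binds bone morphogenetic proteins, had medians of 40.2 and 123 CPM in LRT and 44.2 and 88.0 CPM in HRT.

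The ubiquitin, autophagy and FOXO list held 28 genes, 11 with an identifier, and Foxo1 was its only member of the set. All 11 rose in LRT plantaris (median 1.59, with 0.007 over all genes) and 10 rose in HRT plantaris (median 0.98, with 0.015), beside 14.6% and 5.04% of all genes. Without LRT HI rats 1 and 3 and HRT HI rat 4 the counts were again 11 and 10 (medians 1.24 and 0.71), beside 6.27% and 3.64% of all genes. In soleus 4 rose in LRT and 2 in HRT, beside 8.51% and 8.5% of all genes. The ligase genes Trim63 and Fbxo32 rose by 2.59 (SE 0.37, edgeR adjusted p = 4.8e-06) and 2.50 (SE 0.34, adjusted p = 3e-06) in LRT. In HRT they rose by 1.62 (SE 0.37, edgeR adjusted p = 0.0048) and 1.58 (SE 0.34, adjusted p = 0.0029). This list too was identified through genes selected on these samples. The rats with the largest member differences had the highest Trim63, at 2850 and 2950 CPM in LRT HI rats 1 and 3 and 2040 CPM in HRT HI rat 4. The other immobilized plantaris libraries had 306 to 1060 CPM and the controls 160 to 228 CPM.

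Genes of the lysosome and of stress responses included the member with the largest LRT difference. Gpnmb encodes a membrane glycoprotein of lysosomes and macrophages. It was 2.92, 4.02 and 5.65 CPM in CTRL and 12.4, 37.8 and 178 CPM in HI plantaris of LRT, and in HRT plantaris 3.98, 4.34 and 6.12 CPM in CTRL and 6.13, 16.7 and 153 CPM in HI. The groups did not overlap in either line, although in HRT the lowest immobilized rat, at 6.13 CPM, was barely above the highest control, at 6.12 CPM. LRT rats 1 and 3 had 156 and 178 CPM and HRT rat 4 had 153 CPM, and the next highest rats had 44.8 CPM in LRT and 27 CPM in HRT. The edgeR log2 differences were 3.76 (SE 0.58) in LRT and 2.72 (SE 0.57) in HRT. Soleus Gpnmb was higher in controls than in plantaris, with medians of 11.6 CPM in LRT and 16 CPM in HRT, and 15.8 and 22.2 CPM with immobilization.

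Macrophages also make Gpnmb, and in whole muscle more cells of a type and more RNA per cell cannot be told apart. Of 29 macrophage and leukocyte markers 4 had an identifier, Gpnmb among them, so the list could not be read as a whole, and the defining markers Ptprc, Cd68 and Adgre1 were not among these. The summed level of Ccl2, Ccl7 and S100a9 in plantaris was 1.57 to 4.91 CPM in CTRL and 2.99 to 7.82 CPM in HI of LRT, and 1.85 to 5.20 and 3.90 to 15.9 CPM in HRT. The highest plantaris sum, 15.9 CPM, was in HRT HI rat 4. In soleus the sum was 1.29 to 6.67 CPM in CTRL and 2.84 to 7.93 CPM in HI of LRT, and 0.788 to 4.44 and 2.85 to 30.2 CPM in HRT. The median sum, CTRL first, was 2.45 and 5.42 CPM in LRT plantaris and 3.38 and 5.79 CPM in HRT plantaris. In soleus it was 2.27 and 5.04 CPM in LRT and 2.49 and 8.59 CPM in HRT. All 3 genes rose in HRT soleus, Ccl2 by 1.53 (SE 0.39, edgeR adjusted p = 0.0063), Ccl7 by 1.21 (SE 0.39, adjusted p = 0.03) and S100a9 by 2.36 (SE 0.71, adjusted p = 0.02). Gpnmb differed there by 0.39 (SE 0.53, edgeR adjusted p = 0.66). The part of these cells in the Gpnmb values was not tested.

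Bach1, a heme-sensitive transcriptional repressor, had plantaris medians of 21.3 and 63.5 CPM in LRT and 22.2 and 39.5 CPM in HRT, CTRL first, with no overlap in either line. Rilp, a falling member that links the small GTPase Rab7 to lysosome transport, had 18.4 and 9.55 CPM in LRT and 19.3 and 12.2 CPM in HRT. Its groups did not overlap in LRT. In HRT the highest immobilized rat, at 15.7 CPM, equalled the lowest control as rounded.

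Among the falling members were the genes of 4 enzymes of metabolism, grouped after their values were seen. Tpi1, triosephosphate isomerase of glycolysis, was 2410, 2540 and 2710 CPM in CTRL and 369, 1120 and 1760 CPM in HI plantaris of LRT. In HRT plantaris Tpi1 was 2010, 2160 and 2460 CPM in CTRL and 640, 1310 and 1750 CPM in HI, and the groups did not overlap in either line. Got1, the cytosolic aspartate aminotransferase, had medians of 338 and 134 CPM in LRT and 298 and 197 CPM in HRT. Pgp, the phosphatase that clears phosphoglycolate, had 85.7 and 37.6 CPM in LRT and 81.8 and 48.9 CPM in HRT. Got1 and Pgp did not overlap between groups either. Phykpl, a phospholyase of hydroxylysine breakdown, was low, with medians of 2.15 and 0.835 CPM in LRT and 2.0 and 1.18 CPM in HRT, overlapped in both lines, and was called in neither (edgeR adjusted p = 0.11 and 0.22).

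The glycolysis and glycogen list held 35 genes, 16 with an identifier, and Tpi1 was its only member of the set. In LRT plantaris 15 of the 16 fell (median -1.28, with 0.007 over all genes) and in HRT plantaris 7 fell (median -0.68, with 0.015), beside 13.9% and 5.95% of all genes. Without LRT HI rats 1 and 3 and HRT HI rat 4, 14 fell in LRT (median -0.91) and 8 in HRT (median -0.50), beside 6.8% and 4.78% of all genes. In soleus none fell in LRT (median -0.17), and none fell and 1 rose in HRT (median 0.07). Pgam2, phosphoglycerate mutase of muscle, fell by 1.67 (SE 0.30, edgeR adjusted p = 6.7e-05) in LRT and by 1.07 (SE 0.29, adjusted p = 0.015) in HRT. Ldha, a lactate dehydrogenase subunit, fell by 1.61 (SE 0.32, edgeR adjusted p = 0.00026) and by 0.96 (SE 0.32, adjusted p = 0.043). Its identifiers, again, were chosen on these samples.

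Several markers of fibres and of matrix cells also fell in plantaris. Of 27 muscle fibre markers 5 had an identifier, and 3 fell in LRT plantaris and 1 in HRT, or 1 and 1 without LRT HI rats 1 and 3 and HRT HI rat 4. The one that fell in HRT was Eno3, an enolase that the glycolysis list holds too, and Atp2a1, the fast calcium pump, differed by -0.32 (SE 0.30, edgeR adjusted p = 0.46) in LRT and by 0.11 (SE 0.30, adjusted p = 0.86) in HRT. Mylpf, the fast regulatory light chain, fell by 1.23 (SE 0.40, edgeR adjusted p = 0.017) in LRT and differed by -0.60 (SE 0.39, adjusted p = 0.33) in HRT. Myoz1, a protein of the fast-fibre Z-disc, fell by 1.01 (SE 0.26, edgeR adjusted p = 0.0034) in LRT and differed by -0.43 (SE 0.26, adjusted p = 0.30) in HRT. The sum of Pvalb, Mylpf, Atp2a1, Eno3 and Myoz1 was 20100 to 24800 CPM in CTRL and 7800 to 16600 CPM in HI plantaris of LRT, and 16900 to 18900 and 9840 to 17000 CPM in HRT. Of 21 fibroblast and matrix markers 10 had an identifier, and 9 fell in LRT plantaris and 6 in HRT, or 6 and 4 without these rats. Of all genes 13.9% were lower in LRT plantaris and 5.95% in HRT, or 6.8% and 4.78% without these rats. The identifiers of both marker lists came from genes selected on these samples, so neither list is independent evidence of a fall. Fbn1, the microfibril protein fibrillin, fell by 1.61 (SE 0.30, edgeR adjusted p = 0.00012) in LRT and by 1.5 (SE 0.30, adjusted p = 0.0014) in HRT. The matrix markers were not confined to the plantaris: 1 fell in LRT soleus and 4 in HRT soleus, and Fbn1 fell there by 1.13 (SE 0.29, edgeR adjusted p = 0.0076) and 1.14 (SE 0.30, adjusted p = 0.0082). The part of fibre and matrix content in the values of the falling members was not tested.

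Among the rising members were 4 genes tied to the cytoskeleton or sarcomere, grouped after their values were seen. Tubb6, a beta tubulin, was 5.11, 6.92 and 7.78 CPM in CTRL and 12.6, 21.4 and 118 CPM in HI plantaris of LRT, and 4.18, 6.82 and 8.75 CPM in CTRL and 4.80, 10.6 and 60.6 CPM in HI plantaris of HRT. The LRT groups were apart and the HRT groups overlapped, and the highest values of Tubb6 were again those of LRT rat 1 and HRT rat 4. Mapre3, which binds growing microtubule ends, had medians of 12 and 30.4 CPM in LRT and 12 and 20.2 CPM in HRT. Ssh2, a phosphatase that activates cofilin, had 49.7 and 121 CPM in LRT and 53.7 and 84.8 CPM in HRT. Igfn1, an immunoglobulin and fibronectin repeat protein of muscle, was irregular: 0.365, 1.58 and 40.0 CPM in CTRL and 4.38, 5.81 and 38.0 CPM in HI of LRT. A single LRT control, rat 3, exceeded every immobilized rat, and the edgeR difference was 0.31 (SE 0.62, adjusted p = 0.75) against 1.38 on the scale of the rule. In HRT Igfn1 was 2.01, 4.07 and 9.63 CPM in CTRL and 2.90, 9.61 and 16.6 CPM in HI, with overlap (edgeR adjusted p = 0.32).

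Other members were less tied to a shared role. Mlf1, myeloid leukaemia factor 1, was 271, 307 and 368 CPM in CTRL and 22.3, 89.9 and 247 CPM in HI plantaris of LRT. In HRT plantaris Mlf1 was 273, 347 and 385 CPM in CTRL and 65.1, 211 and 358 CPM in HI. The LRT groups were apart, and in HRT a single immobilized rat, rat 6, lay within the control range. Cmss1 was 3.05, 3.63 and 6.75 CPM in CTRL and 0.628, 1.04 and 2.14 CPM in HI of LRT, and 3.42, 4.20 and 5.24 CPM against 1.04, 1.90 and 3.28 CPM in HRT, apart in both lines. Lpar3, a receptor for lysophosphatidic acid, was 4.06, 6.83 and 8.05 CPM in CTRL and 1.47, 2.27 and 5.36 CPM in HI of LRT, and 3.51, 5.75 and 8.24 CPM against 1.20, 2.64 and 6.54 CPM in HRT. The Lpar3 groups overlapped in both lines. Ufsp1, a protease that processes the ubiquitin-like protein UFM1, was 3.43, 5.49 and 6.71 CPM in CTRL and 1.22, 2.41 and 4.40 CPM in HI of LRT, and 4.29, 5.18 and 6.08 CPM against 1.45, 2.80 and 4.23 CPM in HRT. Only the HRT groups of Ufsp1 were apart.

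LOC498675 was a low rising member, 0.122, 0.944 and 1.62 CPM in CTRL and 0.689, 2.90 and 14.3 CPM in HI plantaris of LRT, and 0.220, 0.425 and 1.15 CPM against 0.298, 1.26 and 7.85 CPM in HRT, overlapping in both. The remaining rising members with a symbol kept to a narrow range: Disp2, Pvt1, Rhobtb1, Nup93, Tcp11l2, Htatip2, Sgsm2, LOC100910875 and Tmem64 differed by 1.22 to 1.64 in LRT and by 0.82 to 0.94 in HRT. Nup93 is a scaffold protein of the nuclear pore, and Pvt1 a long noncoding RNA next to Myc. RGD1561777 differed by -0.93 and -0.85. The clone-named RNAs were low. AABR07010777.1 had plantaris medians of 2.59 and 0.955 CPM in LRT and 3.34 and 1.61 CPM in HRT, and Rn50_1_2682.1 had 8.27 and 3.15 CPM in LRT and 6.55 and 2.16 CPM in HRT.

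Of the members with an identifier only, ENSRNOG00000050129 and ENSRNOG00000029478 had the largest values of the smaller difference of both lines, and ENSRNOG00000015210 had a larger one in LRT (2.05). ENSRNOG00000050129 was 0.405, 0.668 and 1.12 CPM in CTRL and 1.61, 2.67 and 5.42 CPM in HI of LRT, and 0.205, 1.01 and 1.41 CPM against 1.70, 4.03 and 5.25 CPM in HRT, apart in both lines. ENSRNOG00000029478 was 0.354, 0.896 and 1.58 CPM in CTRL and 0.0, 3.81 and 8.52 CPM in HI of LRT, and 0.742, 1.76 and 2.05 CPM against 1.85, 3.61 and 7.80 CPM in HRT, overlapping in both. A small soleus difference means little for some of these. Both genes belonged to 5 rising members with under 0.5 CPM in control soleus, where the 0.5 added before the logarithm holds any difference near 0. Their counts reached at most 16 in a control soleus library and 26 in an immobilized one, and without that addition edgeR's soleus difference reached 2.04 in LRT. The standard errors of edgeR's soleus differences of these 5 genes were 0.66 to 1.24, so small responses in soleus could not be told from none. The mean CPM of 1 was also reached only through a group of immobilized plantaris libraries by ENSRNOG00000050129 (0.67 CPM without the 6 of HRT, 0.765 without the 6 of LRT), ENSRNOG00000029478 (0.986 without those of HRT) and ENSRNOG00000040316 (0.885 without those of HRT).

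The same rats led for most members. In LRT plantaris rat 1 was the highest immobilized rat for 18 of the 37 rising members and rat 3 for 8, and rat 3 was the lowest for 9 of the 14 falling members. In HRT plantaris rat 4 was the highest for 25 of 37 and the lowest for 11 of 14. Averaged over the rising members, the log2 difference from the control mean was 1.96 and 1.87 in LRT rats 1 and 3 and 0.87 to 1.33 in the other 4, and over the falling members it was -2.19 and -2.27 against -1.18 to -0.42. In HRT it was 1.74 in rat 4 and 0.66 to 1.16 in the others over the rising members, and -1.95 against -1.36 to -0.51 over the falling members. The HRT rat with the strongest pattern thus lay within the range of LRT rats 1 to 6. In soleus the averages of LRT libraries 1 and 3 were 0.48 and 0.50 over the rising members, that of HRT HI library 4 was 0.34, and that of an HRT control, rat 1, was 0.48.

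**Figure D3:**
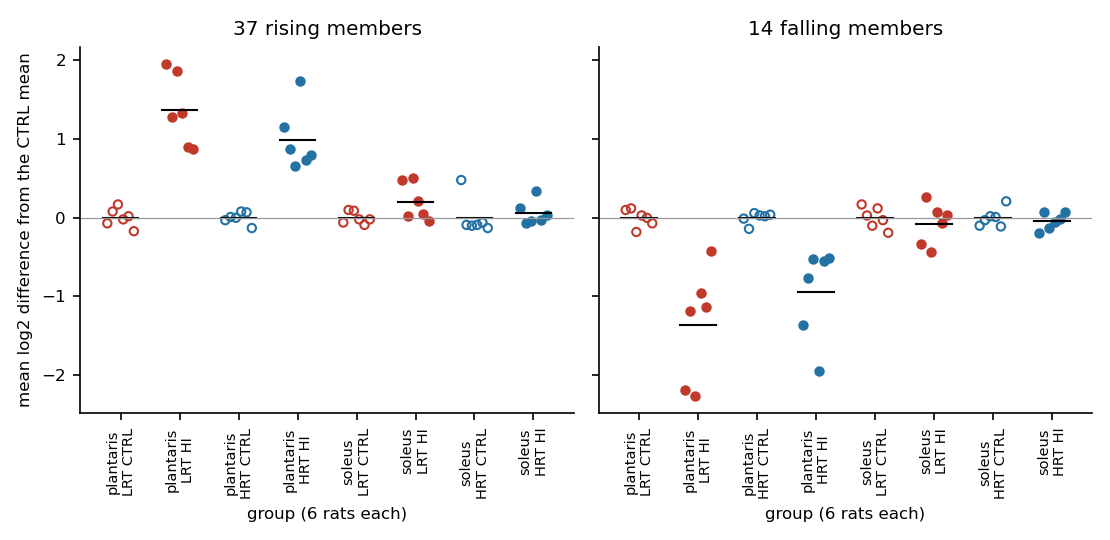
Mean log2 difference of each rat from the mean of its own control group (vertical axis), over the 37 rising members (left) and the 14 falling members (right), by muscle, line and treatment (6 rats each; line, the group mean). The immobilized plantaris rats lie between 0.66 and 1.96 on the left and between -2.27 and -0.42 on the right, with LRT rats 1 and 3 and HRT rat 4 farthest out, and the soleus rats lie within 0.50 of 0.

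In the control rats, 11 of the 14 falling members were higher in plantaris than in soleus, as were 33.5% of all genes with a mean CPM of at least 1. Of the 37 rising members 22 were lower in plantaris, as were 66.5% of all such genes. The median log2 ratio of plantaris to soleus over the falling members was 0.76 in LRT controls and -0.18 with immobilization, and in HRT 0.80 and 0.12. Over the rising members it went from -0.21 to 1.16 in LRT and from -0.51 to 0.56 in HRT. These ratios follow from values the rule used and are given as a description.

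The study set the lines side by side to ask whether a poor response to training goes with a stronger response to disuse. Comparisons between the lines at a fixed treatment were not themselves limits of the rule and were tested, with p-values adjusted over all 16960 genes. With immobilization they are not independent of the rule. The line difference in HI rats is that in controls plus the gap between both lines' HI minus CTRL differences. The rule asked for at least 0.8 in plantaris, with no upper limit, and held both under 0.4 in soleus. In control plantaris no member differed between LRT and HRT, beside 0.531% of all genes (0.271% higher and 0.259% lower in LRT). An unadjusted p under 0.05 was reached there by 2 members with edgeR, beside 11% of all genes, 2 with DESeq2 and 2 with limma-voom. The median difference, LRT minus HRT, was 0.05 over the rising and 0.12 over the falling members. In control soleus no member differed either, beside 1.53% of all genes (0.554% higher and 0.973% lower in LRT), and 8 members had an unadjusted p under 0.05 with edgeR, beside 15% of all genes, 9 with DESeq2 and 6 with limma-voom, while neither of the other tools called any.

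In plantaris of immobilized rats 2 of the 51 members were called, both higher in LRT, where 2.43% of all genes differed (1.69% higher and 0.743% lower in LRT). For 1 of them, ENSRNOG00000015210, this is no test, for the reason given below. The libraries compared are also among those that entered the rule. ENSRNOG00000015210 was 4.63, 8.84 and 14.0 CPM in LRT and 1.08, 2.05 and 5.91 CPM in HRT, a log2 difference of 1.83 (SE 0.36). It reached the mean CPM of 1 that the rule asked for only through the LRT HI plantaris libraries (mean 0.778 CPM over the other 42), so it had to be high there, and its difference is a description with no test. Of the 6 LRT rats 5 lay above every HRT rat. In controls this gene was at 0.762, 1.56 and 3.97 CPM in LRT and 0.363, 0.803 and 1.81 CPM in HRT, a difference of 1.15 (SE 0.38), and in soleus it was at most 0.174 CPM in any rat.

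Myog was the other, with a log2 difference of 1.51 between the lines in HI plantaris (SE 0.43, edgeR adjusted p = 0.049), and the 6 LRT rats, at 46.9 to 286 CPM, lay above 5 of the 6 HRT rats. HRT rat 4, at 162 CPM, was the exception. In controls the difference of Myog was 0.15 (SE 0.42, edgeR adjusted p = 0.94). Its adjusted p was under 0.05 in 10 of 27 alternatives and ran from 0.00021 to 0.42. It was not called when LRT HI replicate 1 or 3, or HRT HI replicate 1, 2, 3, 5 or 6, of plantaris was left out. Without HRT HI replicate 4 of plantaris 15 members were called, beside 9.28% of all genes, and without LRT HI replicate 6 of plantaris 10 were, beside 7.06%, so the count of 2 rested on single rats.

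Of the members that did not pass, 4 with the next smallest adjusted p were all higher in LRT HI plantaris: Smad3 by 0.73 (SE 0.21, edgeR adjusted p = 0.052), Nup93 by 0.64 (SE 0.20, adjusted p = 0.065), Bach1 by 0.56 (SE 0.18, adjusted p = 0.082) and Htatip2 by 0.97 (SE 0.32, adjusted p = 0.086). In all, 13 members had an unadjusted p under 0.05 with edgeR, beside 18.3% of all genes. Over the 37 rising members the median difference was 0.33, and over the 14 falling members -0.26, with 0.001 over all genes. For the junction genes Ache and Prima1 the standard errors were wide, with differences of -0.34 (SE 0.37, edgeR adjusted p = 0.67) and -0.54 (SE 0.42, adjusted p = 0.53), and Gpnmb differed by 1.00 (SE 0.52, adjusted p = 0.29).

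**Figure D4:**
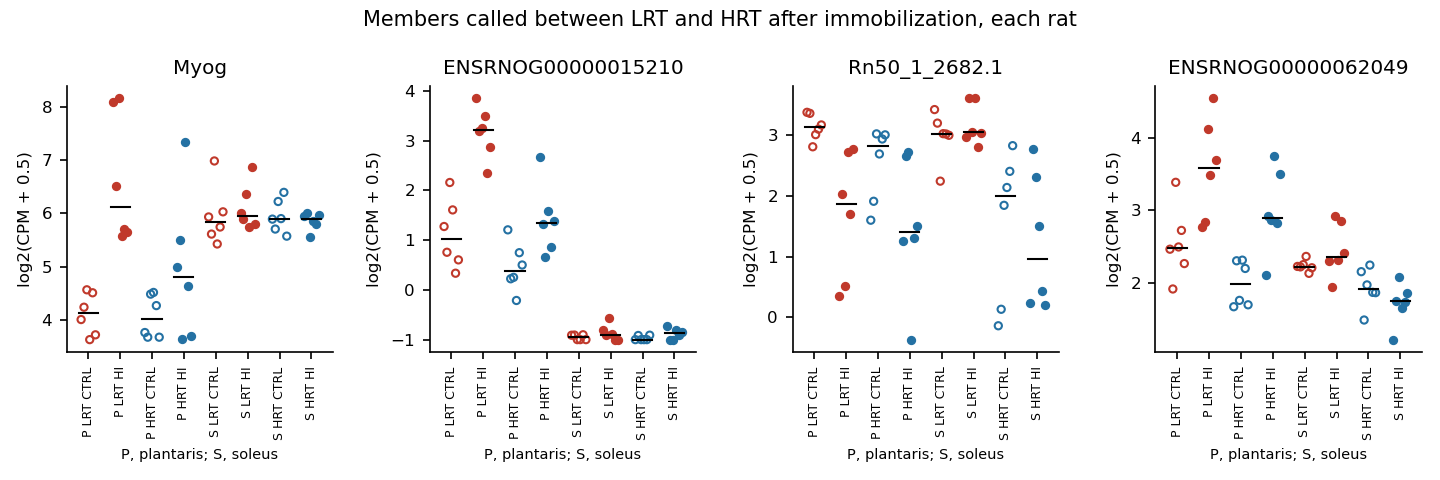
Level of the 4 members called between LRT (red) and HRT (blue) after immobilization, in each rat as log2(CPM + 0.5) (vertical axis) by group (P, plantaris and S, soleus; CTRL open, HI filled; 6 rats a group; line, the median). Myog and ENSRNOG00000015210 were higher in LRT in HI plantaris, and Rn50_1_2682.1 and ENSRNOG00000062049 in HI soleus, with HRT rats reaching the LRT range for Myog, ENSRNOG00000015210 and ENSRNOG00000062049. ENSRNOG00000015210 met the rule only through its LRT HI plantaris libraries, so its difference is a description with no test.

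In soleus of immobilized rats 2 members differed, again both higher in LRT, where 12.3% of all genes differed (6.85% higher and 5.5% lower in LRT). The rule kept line differences in HI soleus near those of controls, so neither is read as a response to immobilization. The intergenic RNA Rn50_1_2682.1 was 6.45, 7.75 and 11.7 CPM in LRT and 0.657, 1.58 and 6.36 CPM in HRT, with no overlap, a log2 difference of 1.80 (SE 0.55, edgeR adjusted p = 0.026). Its control soleus difference was 1.32 (SE 0.54, edgeR adjusted p = 0.22), with 4.23, 7.62 and 10.2 CPM in LRT and 0.409, 3.5 and 6.59 CPM in HRT. ENSRNOG00000062049 was 3.34, 4.64 and 7.07 CPM in LRT and 1.82, 2.84 and 3.71 CPM in HRT, a difference of 0.91 (SE 0.29, edgeR adjusted p = 0.03), and a single LRT rat lay within the HRT range. Its control soleus difference was 0.43 (SE 0.29, edgeR adjusted p = 0.5). In plantaris it was 0.78 (SE 0.28, edgeR adjusted p = 0.25) in controls and 0.73 (SE 0.27, adjusted p = 0.13) with immobilization. Over 27 alternatives the adjusted p of Rn50_1_2682.1 was 0.0055 to 0.13 (under 0.05 in 18) and that of ENSRNOG00000062049 0.0098 to 0.13 (under 0.05 in 15). Leaving out soleus HRT HI replicate 1, 4 or 5 left no member called. Of all genes, 1624, 1194 and 1712 were called in these fits, in that order, against 2093 with every library. Calls thus fell over all genes too, so the loss is not read as specific to the members.

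The difference between plantaris and soleus of the line difference in immobilized rats was 1.13 (SE 0.60) for Myog, -1.63 (SE 0.78) for Rn50_1_2682.1 and -0.18 (SE 0.39) for ENSRNOG00000062049. Libraries of the same number from both muscles deviated together in immobilized rats (correlation over 0.1 in 6 of 6 pairs of each line, mean 0.32 in LRT and 0.28 in HRT). With the rat as a block, added after the data were seen, the values were 1.38 (SE 0.51), -1.97 (SE 0.55) and -0.25 (SE 0.28). The rule held the soleus difference of each line under 0.4 and asked for at least 0.8 in plantaris, so these are descriptions. Over all members that paired fit called 1, Errfi1 (0.86, SE 0.21), beside 0.861% of all genes, and the fit without the block called 0. Members with an unadjusted p under 0.05 numbered 18 with edgeR and the block and 3 without it. Of all genes 10.1% reached that level without the block, and the share with it was not counted. Nothing about the members is read from these counts for the same reason. ENSRNOG00000015210 had at most 5 estimated counts in a soleus library and was not compared.

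Membership moved with the libraries used. Leaving out the same-numbered rat of every group gave sets of 22 to 78 genes, with 15 to 41 of them among the 51, and 5 members were in all 6 such sets: Ache, Foxo1, Igfn1, ENSRNOG00000062049 and ENSRNOG00000050129. Hdac9 was in 5 of these sets, Myog and Prima1 in 4, Mlf1 and Tpi1 in 3 and Gpnmb in 2. Without LRT HI replicates 1 and 3 and HRT HI replicate 4 the rule gave 31 genes, 14 of them members. Without plantaris HRT HI replicate 4 alone it gave 16 genes, all members. The same limits with the muscles exchanged gave 31 genes, 11 rising and 20 falling.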

How the data were processed

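The authors deposited 1 table of estimated counts per gene, made with Salmon 0.9.1 against Rnor_6.0 (rn6) according to the submitters' processing notes and summarised per gene with tximport. Of its values 66.0% were not whole, and they were rounded for the count tests. The labels name a TruSeq RNA kit and the study's methods a stranded, ribosome-depleted kit, so strand was not settled and antisense or overlapping partners of a member cannot be told apart. RNA integrity numbers (RIN) in the labels, used as the covariate, were 7.8 to 8.6, the lowest under the minimum that the study's methods state. Symbols came from the tables of changed genes of the study (1156 identifiers), whose own fold changes and p-values were not used. The members and the gene lists were chosen with earlier results of these data known.

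The rule was applied to CPM in Python 3.11.15 (numpy 2.4.6, pandas 2.3.3, matplotlib 3.10.9). The fit was edgeR 4.0.16 (quasi-likelihood, TMM, filterByExpr) in R 4.3.3 on all 48 libraries in 8 groups with RIN as covariate, leaving 16960 genes, with Benjamini-Hochberg adjustment over all of them and a threshold of 0.05. The fit took no account of both muscles coming from the same animals, except where the rat was a block. Its p-values rest on 1 estimate of the spread between rats per gene, shared by all 8 groups and both muscles. They do not measure the spread of the compared rats alone. DESeq2 1.42.0 and limma 3.58.1 (voom, the study's own tool) were alternatives, beside other scalings, filters, a replicate block, each muscle alone and left-out replicates. On simulated counts for LRT against HRT control plantaris with 16960 genes, edgeR recovered 93% of log2 changes of 1 and 98% of changes of 2, with 3.54% false calls. Changes were planted only in genes with higher counts, all other groups shared 1 mean per gene, and no rat stood apart. In the real comparison the standard error was 0.55 for Gpnmb and 0.50 for Tubb6, so these shares give no power for the members. Library totals of 26.8 to 36.4 M counts set the counting precision. Values in every group were given for the 6 rising and 6 falling members with a symbol whose smaller plantaris difference of both lines was largest, for every member called between lines, and for 2 rising and 2 falling members without a symbol. Other named members were described by role.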

Additional observations from a re-analysis of the deposited data

Results flagged for a closer look

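In 12 of 152 groups of 6 rats, over the 19 members given in full, the highest or lowest rat was separated from the rest by a gap above the 95% critical value of Dixon's test. Chance gives about 1 in 20 groups, which is 7.6 of 152. In immobilized plantaris, LOC498675 was 7.85 CPM in HRT rat 4 against 0.298 to 1.29 CPM in the other 5 rats, and Igfn1 was 38.0 CPM in LRT rat 5 against 4.38 to 9.80 CPM. In control plantaris of HRT, Gpnmb was highest in rat 4 (6.12 CPM, others 3.98 to 4.62), Ache lowest in rat 3 (26.1 CPM, others 33.6 to 38.6), Mlf1 lowest in rat 4 (273 CPM, others 341 to 385) and ENSRNOG00000050129 lowest in rat 6 (0.205 CPM, others 0.860 to 1.41). In control plantaris of LRT, Cmss1 was highest in rat 3 (6.75 CPM, others 3.05 to 4.14).

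In soleus, HRT control rat 1 was highest for Ache (23.3 CPM, others 8.30 to 11) and for Ufsp1 (5.01 CPM, others 1.93 to 2.30). The same library deviated from its group mean by 0.39 over the genes that were not members, against 0.15 to 0.18 in the other 5 HRT soleus controls. HRT immobilized rat 2 was lowest for Gpnmb (9.49 CPM, others 19.6 to 27.4), HRT immobilized rat 4 highest for ENSRNOG00000050129 (0.145 CPM, others 0.0 to 0.034), and LRT control rat 3 lowest for Rn50_1_2682.1 (4.23 CPM, others 7.48 to 10.2).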

How the results depend on the processing

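The number of genes meeting the rule, 51, was 28 with a pseudocount of 2, 12 with a plantaris limit of 1, 29 with a soleus limit of 0.3 and 32 with a mean CPM of at least 5. It was 22 to 78 when a replicate number was left out of all groups and 16 to 71 when a single library was. Alternatives added after seeing the data were the single libraries and the setting without LRT HI replicates 1 and 3 and HRT HI replicate 4, which gave 31. The cause of these moves was not tested, except that narrower limits can only remove genes.

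Called members in HRT plantaris, 36, ranged from 8 to 35 over left-out replicate numbers (8 without replicate 4, 23 without 2, 22 without 6, beside 2.1%, 5.21% and 4.16% of all genes against 11% with every library) and from 21 to 42 over left-out single libraries (5.46% and 12.8% of all genes). Called members between the lines in HI plantaris, 2, were 1 with library totals, 4 with DESeq2, 1 with every gene of any count and 1 with each muscle fitted alone (1.37%, 4.16%, 0.791% and 1.15% of all genes), from 1 to 14 without a replicate number (0.412% to 9.04%) and from 1 to 15 without a single library (0.538% to 9.28%). These counts include ENSRNOG00000015210, called in all 27 alternatives, whose difference is a description. Those in HI soleus, 2, were 1 with limma-voom (12.2% of all genes) and 0 to 2 without a replicate number (3.84% to 15.8%) or a single library (6.99% to 14.8%). In LRT plantaris 44 to 48 members were called over single libraries, beside 19.7% to 31.9% of all genes. The counts of 0 in soleus and between control groups stayed 0 in all alternatives run. The difference of Sgsm2 between lines in HI plantaris turned to -0.02 without LRT HI replicates 1 and 3 and HRT HI replicate 4, and the cause was not tested. It reached 1.09 without replicate 4. It was the only value for a named gene that reversed.

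Same-numbered rats of different lines or treatments shared no more than a number, with mean correlations between -0.045 and 0.064 in the 8 comparisons. Plantaris and soleus libraries of the same number did deviate together, with means of 0.21 in LRT CTRL, 0.32 in LRT HI and 0.28 in HRT HI (6 of 6 pairs over 0.1 in each) and 0.096 in HRT CTRL (4 of 6), and the rat was a block only in the comparison of line differences between the muscles. With the replicate block, 48 members were called in LRT plantaris, 40 in HRT plantaris, 3 between lines in HI plantaris and 2 in HI soleus, beside 29.8%, 13.3%, 3.14% and 12.9% of all genes. The depth limits the 5 rising members with under 0.5 CPM in control soleus.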
